A study of Mus musculus with 17 samples.

Results

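Complement is a cascade of plasma and membrane proteins that marks particles for uptake and calls in leukocytes. C1q, built from 3 chains, recognises immune complexes and dying cells and starts the classical pathway. Factor B and properdin belong to the alternative pathway, which amplifies cleavage of C3, and the small fragments released from C3 and C5 act on receptors of myeloid cells. In the spleen, C1q is known as a product of resident macrophages. The genes described here were taken by name, namely C1qa, C1qb and C1qc for the chains of C1q, C3, Cfb for factor B, Cfp for properdin, and C3ar1 and C5ar1 for the receptors of the C3a and C5a fragments. They are 8 listed genes, of which 7 were measured by 1 probe set each among 22180 genes. C3 was not analysed here.

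RNA of sorted mouse cells was hybridized to 17 Affymetrix MoGene 2.0 arrays in 5 groups. PBS-Ly6C+ monocytes (4 arrays) and DT-Ly6C+ monocytes (4 arrays) were CD115high Ly6Chigh cells from collagenase-digested spleens of CD11c-DTR mice taken 48 h after PBS or diphtheria toxin (DT). In these mice the Itgax (CD11c) promoter drives the toxin receptor, so that DT removes dendritic cells and also some spleen macrophages, and the transgene, carried in 1 or both copies, was present in both groups. Ly6Cneg monocytes (3 arrays) were CD115high Ly6Cneg spleen cells that the labels give as PBS-injected, whereas the study's own legend names C57BL/6 mice. BM cMoPs (3 arrays), the committed monocyte progenitors, came from the marrow of untreated C57BL/6 mice with no enzyme step. G-CSF-Ly6C+ monocytes (3 arrays) were spleen cells labelled as induced by Flt3L and G-CSF. The study describes wild-type C57BL/6 mice given G-CSF under the skin for 5 days. Its legend gives a sort of lineage-negative CD11b+ Ly6C+ cells and names no CD115 gate. Vehicle-treated controls of that experiment were not analysed here. Genotype, treatment schedule and sort thus differed from those of the PBS and DT arrays, and cannot be told apart from G-CSF. The same holds for Flt3L, which the labels name as a treatment and the study's methods do not. The strain label of all groups was C57BL/6, and the age was 8 to 12 weeks. Samples came from single or pooled mice, so that the spread between arrays may be partly technical.

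Array names put 8 arrays in a series A and 9 in a series B. Series A held all cMoP and Ly6Cneg arrays with 1 PBS and 1 DT array (A1 of each), and series B held all G-CSF arrays with 3 PBS and 3 DT arrays (B1 to B3). PBS A1 stood apart from PBS B1 to B3. The summed level of 9 stem and progenitor genes was 9.14 on the log2 scale in PBS A1, against 12.82 to 12.87 in PBS B1 to B3 and 8.94 to 9.48 in the 4 DT arrays. In the cMoP arrays it was 12.61 to 12.81, about the level of PBS B1 to B3. For 6 of the 7 complement genes, all but Cfb, PBS A1 also lay nearer to the mean of the series B DT arrays than to that of the series B PBS arrays. The comparisons of the 7 genes with PBS are therefore given also from series B alone. Comparisons of DT arrays with Ly6Cneg or cMoP arrays cross the series and cannot be had from series B. The labelled populations were set against their own markers too. The summed level of 7 Ly6C+ monocyte genes was 14.21 to 14.32 in DT, 14.16 to 14.20 in G-CSF and 14.28 in PBS A1. It was 12.82 to 12.89 in PBS B1 to B3, below the 13.34 to 13.40 of cMoPs, whereas Ly6Cneg arrays had 11.50 to 12.37. By this sum PBS A1, and not PBS B1 to B3, was like the other Ly6C+ monocyte arrays. The summed level of 8 Ly6Cneg monocyte genes was 13.82 to 13.96 in Ly6Cneg and 13.40 to 13.84 in DT arrays. It was 13.44 to 13.56 in G-CSF, 13.65 in PBS A1, 12.23 to 12.36 in PBS B1 to B3 and 10.98 to 11.11 in cMoPs. Ly6Cneg and DT arrays thus overlapped in this sum, though not in the mean log2 level (10.25 to 10.67 against 9.36 to 10.02). The Ly6Cneg group was uneven as well, with the arrays named A2 and Apool above Anew in many macrophage and B cell genes.

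Values are log2 RMA values as deposited, with the mean ± SD of a group. Differences come from 1 limma model over all 17 arrays with a term for the array series, and are given on the log2 scale with their standard error (SE). A gene is called changed where p was under 0.05 after Benjamini-Hochberg adjustment across the 22180 genes. In sorted populations, fewer expressing cells and less RNA per cell cannot be told apart.

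The C1q genes lie side by side on chromosome 4 in the order C1qb, C1qc and C1qa, with no other protein-coding gene between them. C1qa and C1qc gave a Pearson r of 0.933 over the 17 arrays, C1qa and C1qb 0.830, and C1qb and C1qc 0.827. Since the 3 genes varied together from array to array, the promoters of the 2 chains with a RefSeq entry are shown. Each is 300 bases of GRCm38.p6, from 250 bases before to 50 after the start, on the minus strand, 5′ to 3′. C1qb is at chr4:136886151-136886450 and C1qc at chr4:136892865-136893164. Capitals mark the core word GAGGAA of the myeloid factor PU.1, or its reverse complement.
C1qb: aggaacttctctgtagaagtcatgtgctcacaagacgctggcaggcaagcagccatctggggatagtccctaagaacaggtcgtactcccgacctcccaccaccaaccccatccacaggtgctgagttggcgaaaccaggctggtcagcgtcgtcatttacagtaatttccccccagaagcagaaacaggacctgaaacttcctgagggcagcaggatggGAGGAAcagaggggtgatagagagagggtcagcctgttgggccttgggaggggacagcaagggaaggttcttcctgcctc
C1qc: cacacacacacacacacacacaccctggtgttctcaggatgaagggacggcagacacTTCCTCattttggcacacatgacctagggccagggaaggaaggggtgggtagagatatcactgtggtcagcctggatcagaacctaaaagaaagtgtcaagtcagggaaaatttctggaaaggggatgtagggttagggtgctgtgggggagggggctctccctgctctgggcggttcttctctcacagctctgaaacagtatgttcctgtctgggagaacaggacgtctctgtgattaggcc
The PU.1 word was present in the promoters of 3 of the 5 complement genes with an entry (C1qb, C1qc and Cfp) and not in those of C3ar1 and C5ar1. Of 32851 promoters of that length, 28.3% hold it on either strand. None of the 5 promoters held the other words searched on both strands, which were GAAA, any 2 bases and GAAA for interferon regulatory factors, the word TGCTGAC for MAF, the word TTNNGCAA for C/EBP and GGGAA, any base, T, any base and CC for NF-kB. These occur in 3.44%, 4.67%, 10.8% and 1.19% of all promoters.

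C1qb, which encodes the B chain, was lowest in cMoPs and highest in Ly6Cneg monocytes. Its values were 5.20, 5.47 and 5.29 in the cMoP arrays, and 10.70, 7.83 and 10.78 in Ly6Cneg A2, Anew and Apool. PBS A1 gave 6.42 and PBS B1 to B3 gave 9.05, 9.07 and 8.74. The DT arrays lay at 8.50 in A1 and at 7.88, 7.68 and 7.63 in B1 to B3, and the G-CSF arrays at 9.29, 9.29 and 9.90. Thus cMoPs did not overlap any other group, all G-CSF arrays lay above all DT and PBS arrays, and the widest spread was that of Ly6Cneg monocytes (9.77 ± 1.68, SD, n = 3) and PBS-Ly6C+ monocytes (8.32 ± 1.28, n = 4).

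C1qa, encoding the A chain, showed the same order at the ends. The cMoP arrays gave 6.40, 6.75 and 6.37, and the Ly6Cneg arrays 8.68, 7.20 and 9.94. PBS A1 gave 6.61 and PBS B1 to B3 gave 7.66, 8.01 and 7.66, whereas DT A1 gave 7.30 and DT B1 to B3 gave 6.84, 6.43 and 7.01. G-CSF-Ly6C+ monocytes lay between, at 7.12, 7.42 and 7.88. From the lowest mean to the highest, every group overlapped the next one.

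C1qc, encoding the C chain, was 5.47, 5.38 and 5.29 in cMoPs and 8.38, 6.31 and 8.18 in Ly6Cneg monocytes. In PBS-Ly6C+ monocytes it was 5.63 in A1 and 6.47, 6.86 and 6.06 in B1 to B3. DT-Ly6C+ monocytes gave 6.40 in A1 and 5.86, 5.50 and 5.49 in B1 to B3, and G-CSF-Ly6C+ monocytes 5.99, 6.25 and 6.57. For this chain only cMoPs were separated from the group with the next higher mean.

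**Figure D1:**
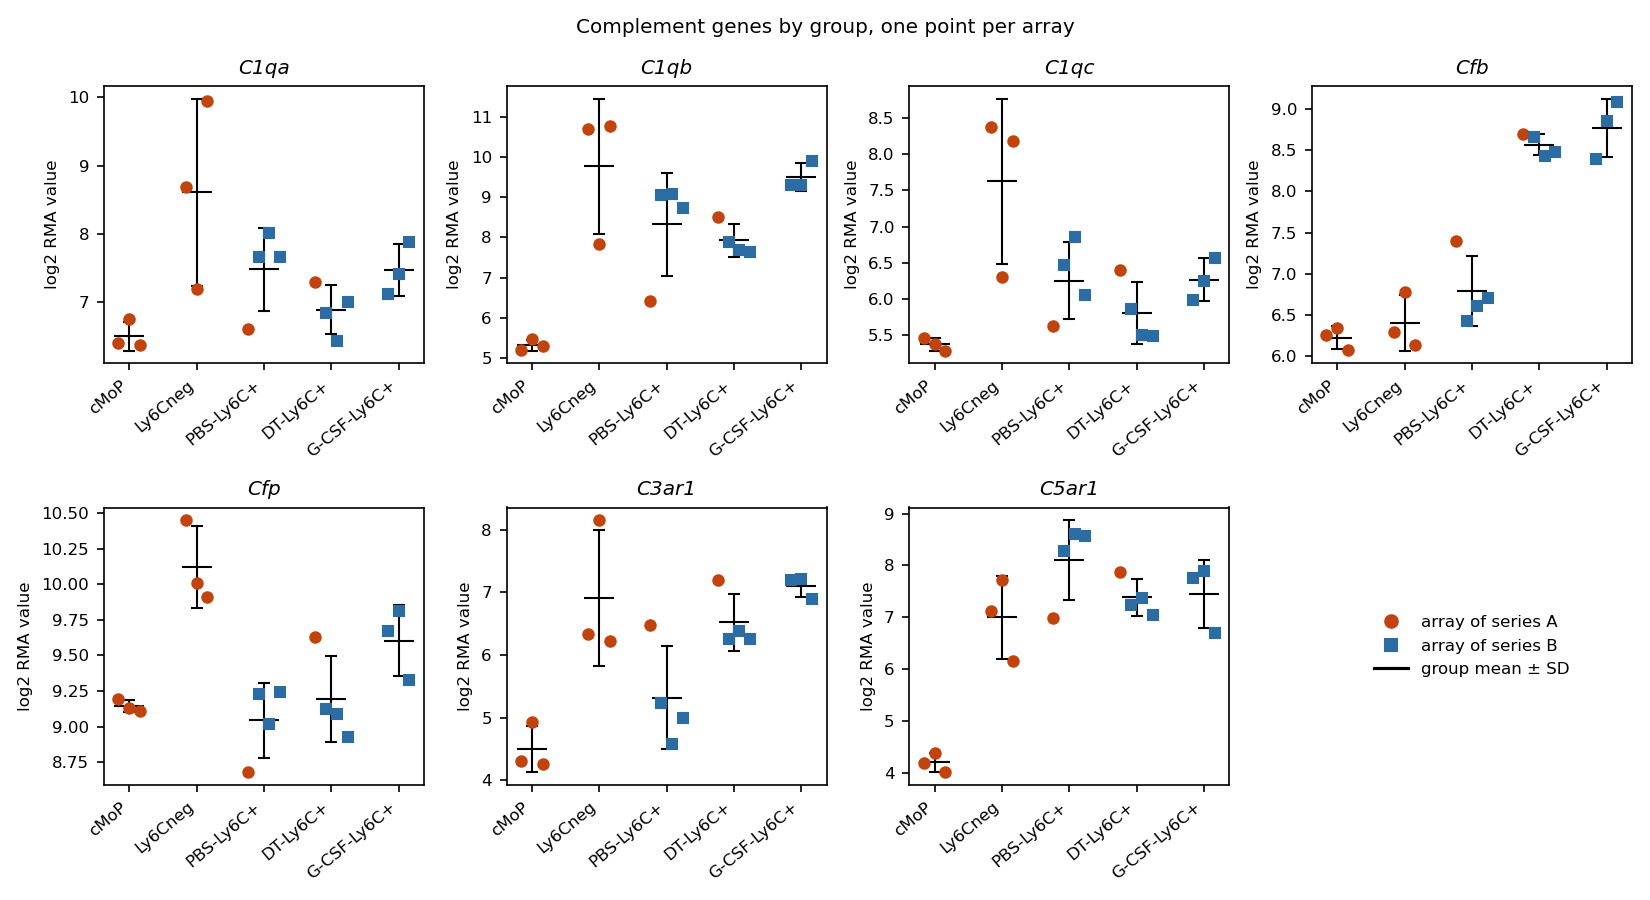
Log2 RMA values (y axis) of 7 complement genes in 5 groups (x axis), with 1 point per array, circles for series A, squares for series B, and bars for the group mean ± SD. The lowest Cfb value of a DT or G-CSF array is 8.39 and the highest of any other array is 7.40, whereas PBS A1 lies below the other PBS arrays in the C1q genes and C5ar1.

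The alternative pathway genes did not follow C1q. Cfb, which encodes the protease subunit of the alternative C3 convertase, was 6.26, 6.34 and 6.07 in cMoPs and 6.29, 6.78 and 6.14 in Ly6Cneg monocytes. PBS-Ly6C+ monocytes gave 7.40 in A1 and 6.43, 6.61 and 6.71 in B1 to B3. DT-Ly6C+ monocytes gave 8.70 in A1 and 8.66, 8.43 and 8.48 in B1 to B3, and G-CSF-Ly6C+ monocytes 8.39, 8.85 and 9.08. All 7 arrays of both expanded populations lay above all 10 others, with means of 8.57 ± 0.13 for DT (n = 4), 8.77 ± 0.35 for G-CSF (n = 3) and 6.79 ± 0.42 for PBS (n = 4). Cfp encodes properdin, which stabilises that convertase. It was 9.19, 9.13 and 9.11 in cMoPs and 10.45, 10.01 and 9.91 in Ly6Cneg monocytes, the latter above every other array. PBS-Ly6C+ monocytes gave 8.68 in A1 and 9.23, 9.02 and 9.24 in B1 to B3, DT-Ly6C+ monocytes 9.63 in A1 and 9.12, 9.09 and 8.93 in B1 to B3, and G-CSF-Ly6C+ monocytes 9.67, 9.81 and 9.33. The PBS, DT and cMoP arrays overlapped for this gene.

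The receptors were lowest in cMoPs. C3ar1, the receptor for C3a, was 4.31, 4.93 and 4.27 in cMoPs, and 6.34, 8.15 and 6.22 in Ly6Cneg A2, Anew and Apool, so that here Anew was the highest array rather than the lowest. It was 6.48 in PBS A1 and 5.23, 4.58 and 4.99 in PBS B1 to B3. DT-Ly6C+ monocytes gave 7.19 in A1 and 6.25, 6.39 and 6.25 in B1 to B3, and G-CSF-Ly6C+ monocytes 7.19, 7.21 and 6.90. C5ar1, the receptor for the chemoattractant C5a, was 4.20, 4.39 and 4.02 in cMoPs, below all other groups, and 7.12, 7.72 and 6.15 in Ly6Cneg monocytes. PBS B1 to B3 held the 3 highest values at 8.28, 8.61 and 8.56, with PBS A1 at 6.98. The DT arrays gave 7.88 in A1 and 7.23, 7.38 and 7.05 in B1 to B3, and the G-CSF arrays 7.76, 7.89 and 6.69, so that both groups overlapped.

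The comparison of DT with PBS asks how Ly6C+ monocytes that expand after depletion of CD11c+ cells differ from those of control spleens. In the model over all arrays, 2 of the 7 complement genes rose in DT-Ly6C+ monocytes, against 6.75% of all genes, and 0 fell, against 5.74%. Cfb rose 3.43-fold (log2 difference 1.78, SE 0.17, adjusted p = 0.00022). C3ar1 rose 2.3-fold (1.20, SE 0.32, adjusted p = 0.0218), a call that was lost when the series term was left out (adjusted p = 0.0814) and when DT B1, B2 or B3, or PBS B2 or B3, was left out. The remaining differences were -0.59 (SE 0.43) for C1qa, -0.40 (SE 0.57) for C1qb, -0.45 (SE 0.37) for C1qc, 0.15 (SE 0.18) for Cfp and -0.72 (SE 0.37) for C5ar1, with adjusted p between 0.262 and 0.771 in the limma model. Without PBS A1 or without DT A1, C5ar1 fell by 1.27 and was called (adjusted p = 0.0115). The median difference of the 7 genes was -0.40, against 0.01 for all genes.

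The array series gave different pictures of this comparison. In series B alone, limma with 6 residual degrees of freedom called 6 of the 7 genes. Cfb (1.94, SE 0.18, adjusted p = 8.15e-06) and C3ar1 (1.36, SE 0.17, adjusted p = 0.000113) rose, against 10.3% of all genes. C1qb fell by 1.23 (SE 0.18, adjusted p = 0.000397), C1qa fell by 1.02 (SE 0.21, adjusted p = 0.0043), C1qc fell by 0.85 (SE 0.22, adjusted p = 0.0139) and C5ar1 fell by 1.27 (SE 0.26, adjusted p = 0.0044), against 10.8% of all genes. The same C1q differences were not called in the limma model over all groups without PBS A1 or without DT A1, with adjusted p of 0.142 for C1qa, 0.126 for C1qb and 0.154 for C1qc. For these 2 rises and 4 falls values of the 3 DT arrays were apart from those of the 3 PBS arrays, which was so for 18.5% of all genes with DT above PBS and for 16.9% with DT below. In series A, where 1 array stood against 1 and no test can be had of that pair alone, DT A1 was above PBS A1 in all 7 genes, by 2.08 for C1qb, 0.69 for C1qa, 0.78 for C1qc, 0.90 for C5ar1, 1.30 for Cfb, 0.95 for Cfp and 0.72 for C3ar1. The falls of the C1q genes and C5ar1 therefore had the opposite sign in series A, while Cfb and C3ar1 were higher with DT in both. The difference between both series was tested by an interaction term of the limma model, which rests on the A1 arrays. It was 3.30 (SE 1.04, adjusted p = 0.0642) for C1qb, 2.17 (SE 0.66, adjusted p = 0.0556) for C5ar1 and 1.06 (SE 0.32, adjusted p = 0.05, not under the threshold) for Cfp, and 0 of the 7 genes were called, against 8.3% of all genes. At an unadjusted p under 0.05 these 3 genes passed. The count rose to between 1 and 4 under some settings and when some arrays were left out. The share of all genes was not counted at the unadjusted threshold or in those fits, so these counts cannot be set against it.

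**Figure D2:**
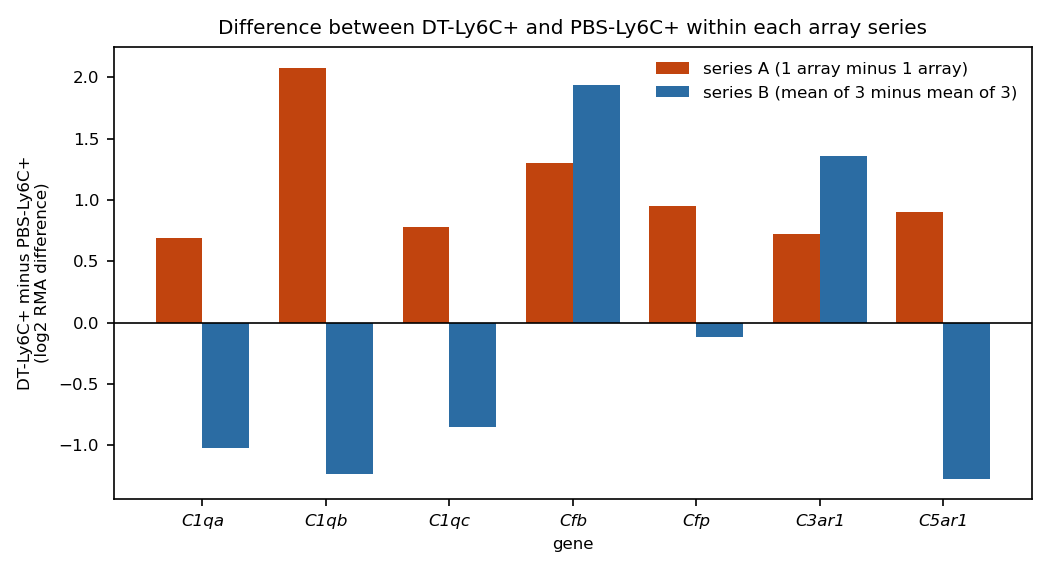
Difference between DT-Ly6C+ and PBS-Ly6C+ monocytes (y axis, log2 RMA, no error bars) for 7 genes (x axis) within series A, 1 array minus 1 array, and series B, mean of 3 minus mean of 3. Cfb and C3ar1 are positive in both series, and the C1q genes and C5ar1 are positive in series A and negative in series B.

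Markers of other cells were set beside these differences, and they did not all move the same way. Of 14 spleen macrophage genes, 3 rose and 3 fell in DT against PBS in the model over all arrays. Their summed level was 12.02 to 12.23 in DT B1 to B3, 12.12 to 12.29 in PBS B1 to B3, 11.66 in PBS A1 and 12.13 in DT A1. Slc40a1, the iron exporter, was 10.26, 10.09 and 10.09 in PBS B1 to B3, 5.30 in PBS A1 and between 6.08 and 6.53 in the DT arrays. Vcam1, an adhesion molecule of red pulp macrophages, was 8.40, 8.52 and 7.90 in PBS B1 to B3, 5.72 in PBS A1 and between 5.44 and 6.47 in the DT arrays. The opposite direction was seen for Siglec1, a sialic acid receptor of marginal metallophilic macrophages, which was between 8.57 and 9.26 in the DT arrays and 8.34 in PBS A1, against 5.97, 5.32 and 5.71 in PBS B1 to B3. Beside C5ar1, which neutrophils also express, stands the neutrophil marker Ly6g, at 10.78, 10.32 and 10.99 in PBS B1 to B3, 3.56 in PBS A1, 3.78 in DT A1 and 6.60 to 6.71 in DT B1 to B3. Of 16 neutrophil genes 7 fell and 1 rose in DT, with a summed level of 15.45 to 15.49 in PBS B1 to B3, 13.56 in PBS A1 and 13.84 to 14.35 in the DT arrays. These 4 marker genes were picked after their values were seen, and the sort excluded lineage-positive cells, with a dump gate that the methods give as holding anti-Ly-6G, anti-CD3 and B cell antibodies. Of 8 T cell genes 7 fell, with a summed level of 10.21 to 10.49 in PBS B1 to B3, 8.81 in PBS A1 and 8.56 to 9.18 in the DT arrays, and 8 of the 9 stem and progenitor genes fell. Of 7 B cell genes 0 were called, and of 9 dendritic cell genes 1 fell. The part of such cells in the differences of the 7 complement genes was not tested.

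For G-CSF, the question is whether this treatment, labelled as Flt3L and G-CSF, gives monocytes like those found after DT. Against PBS, 2 of the 7 genes rose, against 6.28% of all genes, and 0 fell, against 6.22%. They were Cfb, 4.32-fold higher (2.11, SE 0.20, adjusted p = 4e-05), and C3ar1, 4.24-fold higher (2.09, SE 0.36, adjusted p = 0.00149), in limma. The DT and G-CSF comparisons share the PBS arrays. In series B alone both calls stood, with rises of 2.19 for Cfb (SE 0.18, adjusted p = 3.87e-06) and 2.17 for C3ar1 (SE 0.17, adjusted p = 3.35e-06), against 9.73% of all genes, and C5ar1 fell by 1.04 (SE 0.26, adjusted p = 0.0156), against 10.7%. The C5ar1 fall was also called over all arrays without PBS A1 or without DT A1 (adjusted p = 0.0379). In the same comparison with PBS over all arrays, 12 of 16 neutrophil genes, 8 of 9 stem and progenitor genes and 6 of 8 T cell genes fell. The summed neutrophil level was 13.95 to 14.21 in the G-CSF arrays, and the part of such cells was not tested. C1qb differed by 0.95 (SE 0.64, adjusted p = 0.395) over all arrays and by 0.54 (SE 0.18, adjusted p = 0.0574) in series B. C1qa and C1qc lay within 0.09 and 0.01 of PBS over all arrays (SE 0.48 and 0.42).

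Set directly against each other, G-CSF-Ly6C+ and DT-Ly6C+ monocytes gave no call over all arrays. The limma count was 0 of 7 complement genes, with 0% of all genes called higher and 0% lower, and 2 of the 7 (C3ar1 and Cfp) had an unadjusted p under 0.05, as did 879 genes in the higher and 458 in the lower direction. The differences were 1.35 (SE 0.64) for C1qb, 0.89 (SE 0.36) for C3ar1, 0.50 (SE 0.48) for C1qa, 0.45 (SE 0.42) for C1qc, 0.42 (SE 0.20) for Cfp, 0.33 (SE 0.20) for Cfb and -0.04 (SE 0.41) for C5ar1. Within series B, which holds all G-CSF arrays, C1qb rose 3.4-fold in G-CSF-Ly6C+ monocytes (1.77, SE 0.18, adjusted p = 0.00568) and was 1 of the 4 genes called higher, 0.018% of all genes. Its G-CSF values of 9.29, 9.29 and 9.90 did not overlap the DT values of 7.88, 7.68 and 7.63. The other C1q genes differed by 0.71 (C1qa, adjusted p = 0.369) and 0.66 (C1qc, adjusted p = 0.439) there, so that the smaller differences of these chains did not pass. The difference between chains was not tested. The summed level of the 14 macrophage genes was 12.25 to 12.58 in the G-CSF arrays and 12.02 to 12.23 in DT B1 to B3. Over all arrays 0 of these 14 were called, and the part of macrophages in the C1qb difference was not tested.

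**Figure D3:**
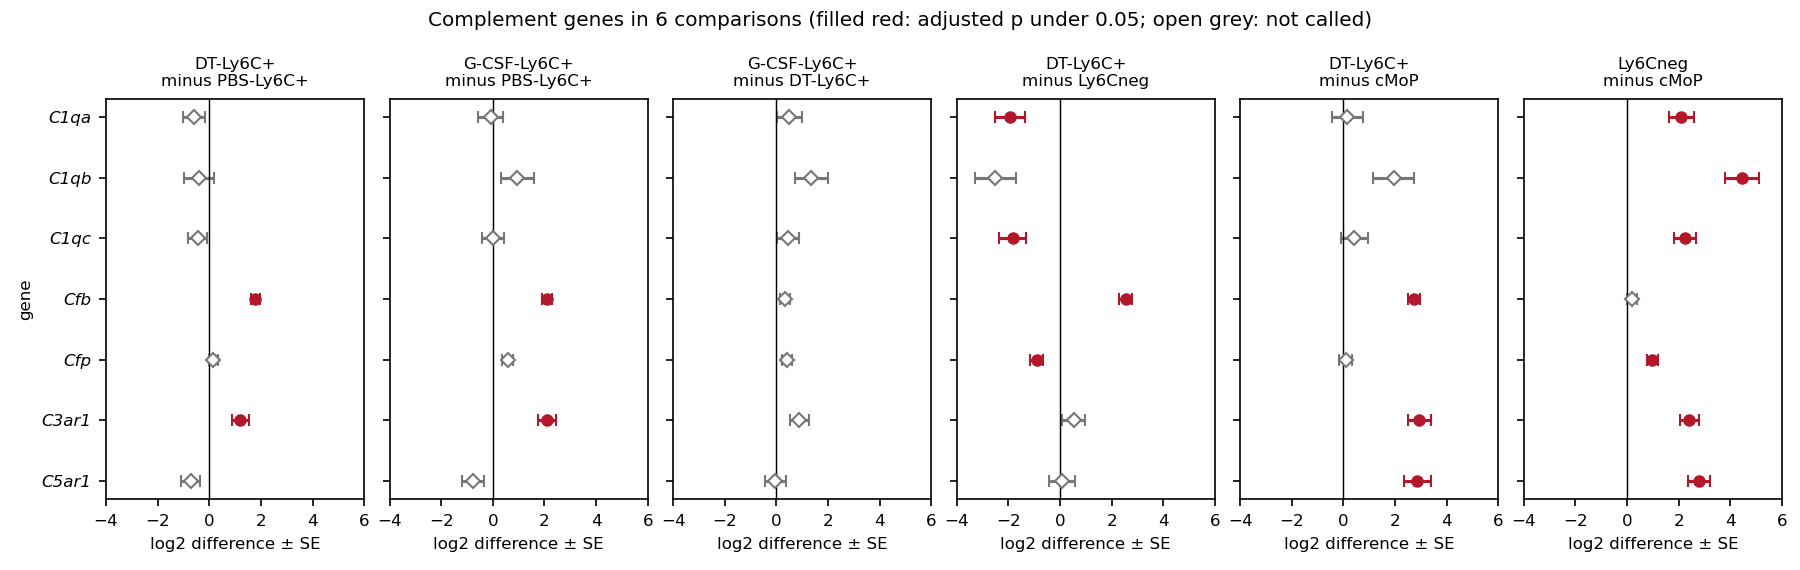
Log2 differences ± SE (x axis) of 7 complement genes (y axis) in 6 comparisons of the limma model over 17 arrays, with filled red circles for adjusted p under 0.05 and open grey diamonds for the rest. Cfb is called in every comparison of an expanded population with PBS, Ly6Cneg or cMoP arrays, and no gene is called between G-CSF and DT.

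Against Ly6Cneg monocytes, the resident patrolling subset, 3 of the 7 genes were lower in DT-Ly6C+ monocytes, against 3.39% of all genes, and 1 was higher, against 7.42%. Cfb was 5.8-fold higher (2.54, SE 0.24, adjusted p = 7.02e-06). C1qa fell by 1.94 (SE 0.59, adjusted p = 0.0448), C1qc fell by 1.83 (SE 0.52, adjusted p = 0.0313) and Cfp fell by 0.89 (SE 0.25, adjusted p = 0.0266). The C1qb difference of -2.51 (SE 0.79) had an adjusted p of 0.0538 in limma, just outside the threshold, and it was called without DT A1 or without Ly6Cneg Anew. The Cfb call held when any 1 array was left out. The C1qa call was lost in 15 of 17 such fits, the C1qc call without Ly6Cneg A2, Ly6Cneg Apool, PBS A1 or DT B2, and the Cfp call without Ly6Cneg A2 or PBS A1. Without PBS A1 the differences were -1.30 for C1qa, -1.27 for C1qb, -1.22 for C1qc and -0.50 for Cfp, and without DT A1 they were -3.01, -4.58, -2.85 and -1.56.

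The Ly6Cneg arrays differed among themselves by as much. The mean of A2 and Apool exceeded Anew by 2.91 for C1qb, 2.12 for C1qa and 1.97 for C1qc. Macrophage genes differed in the same arrays, by 3.95 for Vcam1, 3.91 for Slc40a1, 3.33 for Spic and 2.83 for Mertk, and the B cell gene Cd79a by 3.07, all picked after their values were seen except Spic. Over the 14 macrophage genes the difference ran from -0.18 (Cd209b) to 3.95, with Adgre1 at 0.19 and Vsig4 at -0.05. Over the 7 B cell genes it ran from -0.10 (Cd22) to 3.07. The summed level of the 14 macrophage genes was 13.29 in A2, 13.13 in Apool and 11.17 in Anew, and 3, 3 and 7 of them lay below the median of their array. C3ar1 ran the other way, with A2 and Apool 1.87 below Anew, and so did the dendritic cell genes Xcr1 (-2.25) and Ccr7 (-2.17). Over the 9 dendritic cell genes the difference ran from -2.25 to 0.30 (Cd209a). The summed level of 9 dendritic cell genes was 13.18 in A2, 13.44 in Apool and 13.83 in Anew. The part of other cells in the uneven C1q and C3ar1 values was not tested.

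Spic, the transcription factor of iron-recycling red pulp macrophages, was the gene most like C1qb over the 17 arrays (Pearson r = 0.964). For C1qa and C1qc its r was 0.82 and 0.85, and Vcam1 gave 0.89 with C1qa, 0.79 with C1qb and 0.91 with C1qc. Not all macrophage genes were alike in this. Over the 14 listed, r ran from -0.17 (Siglec1) to 0.89 (Vcam1) with C1qa. With C1qb it ran from 0.07 (Cd209b) to 0.96 (Spic), and with C1qc from -0.13 (Siglec1) to 0.93 (Mertk). The arrays share group and series, so these values describe the set of arrays as a whole. Spic itself was 7.12 to 7.67 in the DT arrays and 7.94 to 8.83 in the G-CSF arrays, so that these groups did not overlap in Spic either.

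**Figure D4:**
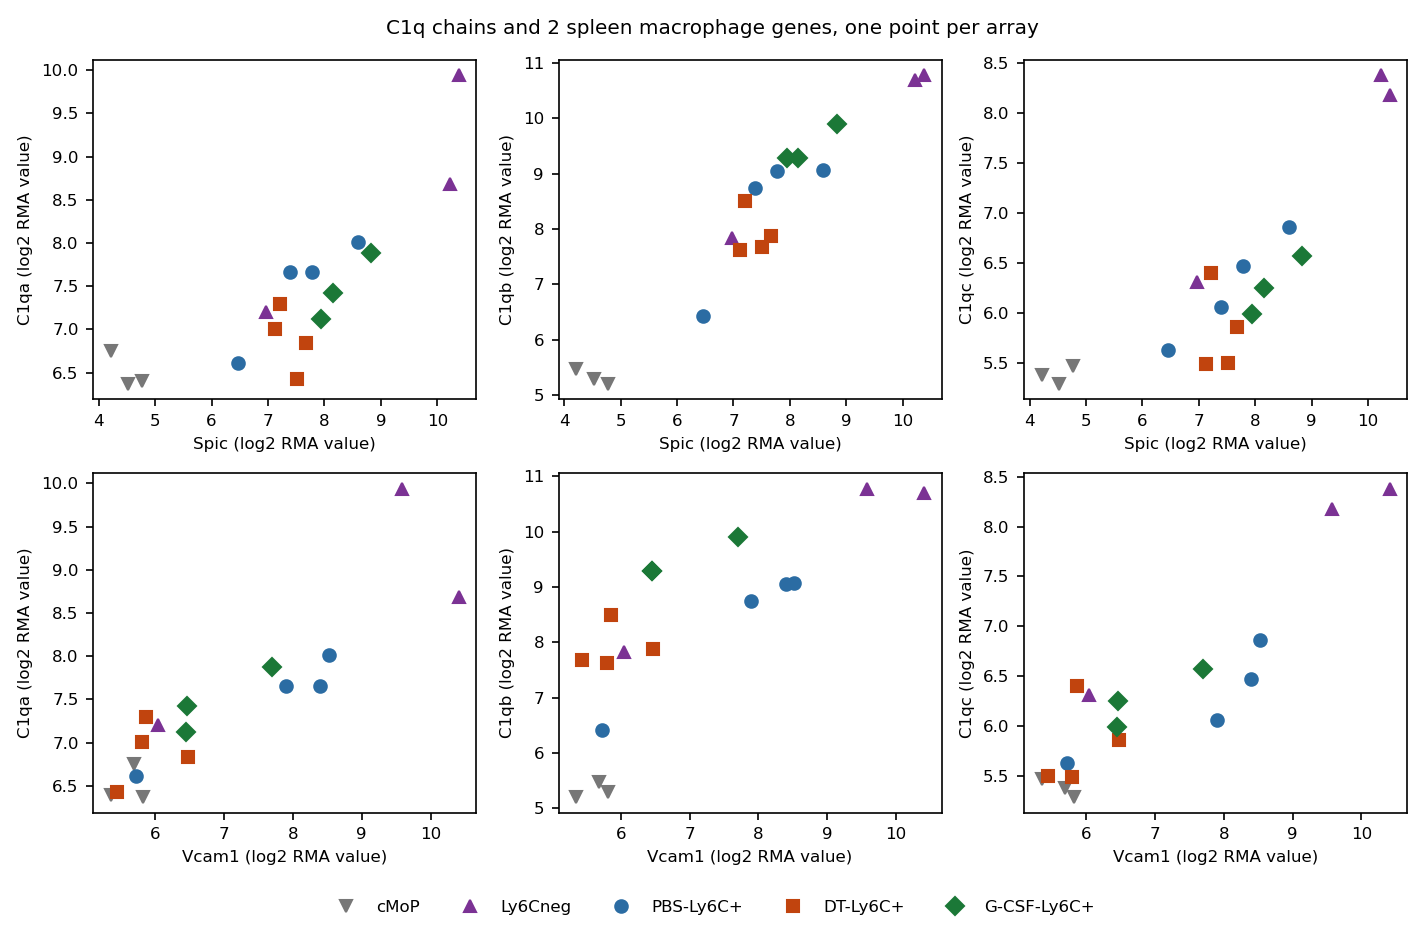
Log2 RMA values of C1qa, C1qb and C1qc (y axes) against Spic (top) and Vcam1 (bottom, x axes), with 1 point per array and a symbol and colour for each group. Ly6Cneg A2 and Apool lie at the upper right, cMoPs at the lower left and Ly6Cneg Anew among the Ly6C+ arrays.

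Other genes most like each member over the 17 arrays were Clec1b (r = 0.952) and Igf1 (0.930) for C1qa, next to C1qc itself. C1qb was also like Fcgr4 (0.935), an Fc receptor, and Abcc3 (0.925). C1qc was most like Adamdec1 (0.951), C1qa (0.933) and Fcna (0.930), a ficolin that starts the lectin pathway. Cfb stood with Trim30c (0.975), Serpinb8 (0.968) and Cndp2 (0.963). Trim30c, for example, was 7.70 ± 0.25 in DT (n = 4), 8.00 ± 0.19 in G-CSF (n = 3) and 5.58 ± 0.36 in PBS arrays (n = 4). C3ar1 was most like Gpr65 (0.940), Tmem131 (0.935) and Cd80 (0.932), and C5ar1 most like Plp2 (0.958), Snap23 (0.957) and the chemokine Cxcl2 (0.949). Cfp had the weakest likeness, with Gm7244 (0.828), Utf1 (0.824) and Acp5 (0.822).

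Relative to marrow progenitors, both receptors were higher in DT-Ly6C+ and Ly6Cneg monocytes. Against cMoPs, 3 of the 7 genes were higher in DT-Ly6C+ monocytes, against 11.9% of all genes, and 0 were lower, against 13.7%. C3ar1 was 7.64-fold higher (2.93, SE 0.45, adjusted p = 0.000101), C5ar1 7.28-fold (2.86, SE 0.51, adjusted p = 0.000427) and Cfb 6.57-fold (2.72, SE 0.24, adjusted p = 6.27e-07). The C5ar1 call was lost without DT A1, at a difference of 1.51. C1qb differed by 1.94 (SE 0.79, adjusted p = 0.0885), and the difference ran from -0.12 without DT A1 to 3.18 without PBS A1, and it was called without PBS A1 or without Ly6Cneg Anew. In Ly6Cneg monocytes 6 of the 7 genes were higher than in cMoPs, against 11.9% of all genes, and 0 were lower, against 18.4%. The differences were 4.45 for C1qb (SE 0.66, adjusted p = 7.34e-05), 2.10 for C1qa (SE 0.49, adjusted p = 0.00355), 2.24 for C1qc (SE 0.43, adjusted p = 0.000759), 0.98 for Cfp (SE 0.21, adjusted p = 0.00151), 2.41 for C3ar1 (SE 0.37, adjusted p = 0.000108) and 2.79 for C5ar1 (SE 0.43, adjusted p = 9.48e-05). Those 6 calls held when any 1 array was left out. Cfb differed by 0.18 (SE 0.20, adjusted p = 0.556). cMoPs and the spleen cells also differed in organ and in the enzyme step, which cannot be told apart from cell type here.

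Of 50 other complement genes, 45 were measured. In DT against PBS, 2 of them rose, against 6.75% of all genes, and 3 fell, against 5.74%. In series B alone 2 rose and 8 fell, against 10.3% and 10.8%. Without PBS A1 or without DT A1, 3 rose and 5 fell, and over all 22180 genes 2099 rose and 2220 fell. Lrp1, a large endocytic receptor, rose 3.5-fold (1.81, SE 0.36, adjusted p = 0.00339), with 7.95, 8.10 and 8.04 in PBS B1 to B3 and 10.22 to 10.56 in the DT arrays. In PBS A1, however, Lrp1 was 10.40, as high as in the DT arrays, and the difference within series A was -0.17. Colec12, a scavenger collectin, rose by 0.94 (SE 0.22, adjusted p = 0.0109), a call lost in series B alone (0.90, SE 0.30, adjusted p = 0.0504). Clusterin (Clu), an inhibitor of the terminal pathway, fell by 1.09 (SE 0.22, adjusted p = 0.0043). C1qbp, a largely mitochondrial protein first found by its binding to C1q, fell by 1.07 (SE 0.32, adjusted p = 0.0366), and C5ar2, the second C5a receptor and the gene next to C5ar1 on chromosome 7, fell by 0.86 (SE 0.20, adjusted p = 0.00835). C5ar2 was 6.84 in PBS A1 and 6.78 to 7.14 in PBS B1 to B3, against 5.89 to 6.15 in the DT arrays, so that it separated the groups in both series. For C1qbp the series differed in sign, with DT A1 0.90 above PBS A1 and a series B difference of -1.72, and Clu differed by -0.05 in series A and -1.44 in series B.

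Against PBS, G-CSF-Ly6C+ monocytes had 5 of the 45 genes higher, against 6.28% of all genes, and 5 lower, against 6.22%. These counts were 5 and 8 in series B alone, against 9.73% and 10.7% of all genes. They turned on single arrays, with 1 higher and 3 lower without G-CSF B2, 3 and 1 without G-CSF B3, 3 and 4 without G-CSF B1, 2 and 0 without PBS B2, 3 and 2 without PBS B1 and 3 and 3 without PBS B3. The falls also numbered 3 without DT B1, DT B3 or cMoP A1. Over all 22180 genes, 1393 were higher and 1379 lower, and these counts dropped in the same fits. They were 946 and 991 without G-CSF B2, 936 and 916 without G-CSF B3, and 1132 and 1054 without G-CSF B1. Without PBS B1, B2 or B3 they were 886 to 907 and 878 to 921. Without DT B1, DT B3 or cMoP A1 they were 1288 to 1328 and 1298 to 1365. Lrp1 (2.27, SE 0.40, adjusted p = 0.00164), Cd93 (0.95, SE 0.28, adjusted p = 0.037), which encodes a receptor once linked to C1q uptake, Colec12 (0.84, SE 0.25, adjusted p = 0.0356) and Fcnb, a ficolin of myeloid precursors (0.66, SE 0.19, adjusted p = 0.0294), rose the most. Among the falls were C1qbp (fell by 1.20, adjusted p = 0.0349), the membrane regulators Cd59a (fell by 1.15, adjusted p = 0.0172) and Cd46 (fell by 0.74, adjusted p = 0.0435), and Clu (fell by 1.03, adjusted p = 0.0122). In series B alone Lrp1, Cd93, Fcnb, C1qbp, Cd59a, Cd46 and Clu were called in the same direction, and Colec12 was not (0.83, SE 0.30, adjusted p = 0.0741). That fit leaves out PBS A1, where Cd93 was 9.07, above the G-CSF arrays (8.14 to 8.91). C1qbp in PBS A1 was 7.80, below the G-CSF arrays (8.09 to 8.72), and Cd46 was 5.46, just below them (5.47 to 5.92). Lrp1 was 10.40, just under the G-CSF values of 10.50 to 10.72. Fcnb (6.38), Cd59a (4.49) and Clu (5.71) in PBS A1 lay on the same side of the G-CSF arrays as PBS B1 to B3. No gene of the 45 was called between G-CSF and DT in limma, and 1 in each direction had an unadjusted p under 0.05. Of the 7 terminal pathway genes, 0 were called in either comparison with PBS over all arrays. In series B alone C6 fell by 0.86 in DT (SE 0.20, adjusted p = 0.00836) and by 0.85 in G-CSF arrays (SE 0.20, adjusted p = 0.01).

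Against Ly6Cneg monocytes, 5 of the 45 were higher in DT-Ly6C+ monocytes, against 7.42% of all genes, and 3 lower, against 3.39%. Without PBS A1 these counts were 6 and 1, and those over all 22180 genes were 1293 and 459 in place of 1646 and 752. Cd93 (2.72, SE 0.35, adjusted p = 9.47e-05), Lrp1 (2.47, SE 0.49, adjusted p = 0.0035), Fcnb (1.75, SE 0.23, adjusted p = 0.000125) and Colec12 (1.30, SE 0.31, adjusted p = 0.0111) were the highest. Itgax, the alpha chain of complement receptor 4 and the CD11c gene itself, fell by 4.70 (SE 0.30, adjusted p = 9.06e-08). Of 9 dendritic cell genes 5 fell too, with a summed level of 13.18 to 13.83 in Ly6Cneg and 10.45 to 11.41 in DT arrays, and their part in the Itgax difference was not tested. The Itgax promoter also drives the toxin receptor in these mice, so that DT acts on cells in which it is active. The part of that removal was not tested either. Mean Itgax was 7.23 in DT-Ly6C+ and 7.29 in PBS-Ly6C+ monocytes. C6, a terminal component, fell by 1.89 (SE 0.51, adjusted p = 0.0254) and Cr2, the complement receptor of B cells, fell by 1.73 (SE 0.48, adjusted p = 0.0277). Both latter genes were uneven in the Ly6Cneg arrays, with C6 at 7.96, 5.34 and 6.82 and Cr2 at 5.67, 4.88 and 7.30 in A2, Anew and Apool, and 5 of 7 B cell markers were also lower in DT-Ly6C+ monocytes. The summed level of the B cell markers was 10.01 to 11.06 in Ly6Cneg and 8.74 to 8.94 in DT arrays, and its part in the Cr2 difference was not tested.

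Against cMoPs, 6 of the 45 were higher in DT-Ly6C+ monocytes, against 11.9% of all genes, and 2 lower, against 13.7%. Without PBS A1 these counts were 6 and 1, and those over all 22180 genes were 1790 and 2006 in place of 2629 and 3036. In Ly6Cneg monocytes 10 were higher, against 11.9%, and 3 lower, against 18.4%. The integrin chains of complement receptors 3 and 4 were higher in both. Itgam was higher by 4.43 in DT (SE 0.16, adjusted p = 2.84e-11) and by 3.25 in Ly6Cneg monocytes (SE 0.14, adjusted p = 6.8e-11), and the absence of surface CD11b, its product, was part of the sort of cMoPs. Itgb2 was higher by 3.15 (SE 0.17, adjusted p = 1.82e-09) and 2.89 (SE 0.14, adjusted p = 4.1e-10). Itgax was higher by 1.60 in DT-Ly6C+ monocytes (SE 0.30, adjusted p = 0.000644) and by 6.29 in Ly6Cneg monocytes (SE 0.25, adjusted p = 4.26e-11), from 4.60 ± 0.10 to 10.90 ± 0.38 (n = 3 each). In DT-Ly6C+ monocytes Lrp1 (4.19, SE 0.49, adjusted p = 9.17e-06) and C4b, a component of the classical and lectin pathways (2.21, SE 0.57, adjusted p = 0.00771), were also higher than in cMoPs, and C1qbp (fell by 3.25, SE 0.44, adjusted p = 3.27e-05) and Fcnb (fell by 0.76, SE 0.23, adjusted p = 0.0233) were lower. In Ly6Cneg monocytes Fcna, at 8.88, 6.00 and 8.84 in A2, Anew and Apool, was higher by 2.36 (SE 0.53, adjusted p = 0.00259), while Cd93 fell by 2.57 (SE 0.29, adjusted p = 6.14e-06), Fcnb fell by 2.51 (SE 0.19, adjusted p = 1.12e-07) and C1qbp fell by 2.06 (SE 0.37, adjusted p = 0.000368). Fcna thus shared the low value of Anew with the C1q genes.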

How the data were processed

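The authors made the deposited log2 values by RMA in oligo, per the labels and methods, and its version and genome build are not given in the sources used here. Their later ComBat step with outside arrays is not in these values. Of 41345 probe sets, 23521 had 1 gene symbol in the platform annotation. The probe set with the highest mean was kept for each of 22180 genes. R 4.3.3 with limma 3.58.1 fitted group and array series to all 17 arrays (11 residual degrees of freedom), with Benjamini-Hochberg adjustment over all genes and a threshold of 0.05. Array medians lay between 5.31 and 5.53. The number of arrays limits the precision. Genes named are all listed members, up to 4 called other complement genes in each direction, and the 3 most alike genes by Pearson r. Members and lists were chosen with earlier results of these data known. Alternatives were no series term, each series alone, dim genes left out, mean of probe sets, quantile normalization, trended and robust eBayes, array number as a block and each array left out. The model was tested on simulated data. Promoters were from RefSeq, and figures were drawn with matplotlib 3.10.9.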

Additional observations from a re-analysis of the deposited data

Results flagged for a closer look

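In 2 of 14 groups of 4 arrays that were examined (7 genes in PBS-Ly6C+ and DT-Ly6C+ monocytes), 1 array lay farther from the others than Dixon's critical ratio for 4 values allows, and chance gives about 1 such group in 20. For C1qb in PBS-Ly6C+ monocytes, the gap of PBS A1 (6.42) to the next array (8.74) was 0.876 of the range. For C3ar1 in DT-Ly6C+ monocytes, the gap of DT A1 (7.19) to the next array (6.39) was 0.850 of the range. Both are the single series A array of their group, so that the array and the series cannot be told apart.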

How the results depend on the processing

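Limits come first. Series A holds 1 PBS and 1 DT array, and every comparison of DT arrays with cMoP or Ly6Cneg arrays rests on them through the series term, which cancels between Ly6Cneg and cMoP arrays. RMA values carry no detection call, so that low values have no set floor. Cfb kept its direction in all alternatives for both comparisons with PBS, and its call in all but series A alone for DT. That fit set 1 DT array against 1 PBS array (difference 1.30), with the spread taken from other groups.

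The number of complement genes called in DT against PBS (2) was 1 with no series term, 6 in series B alone and 0 in series A alone, where the spread came from the cMoP and Ly6Cneg arrays and 0 of all 22180 genes were called, and 1 to 3 when arrays were left out in turn. For G-CSF against PBS (2) it was 2 to 3 with arrays left out. For G-CSF against DT (0) it was 1 in series B alone and 0 to 0 with arrays left out. For DT against Ly6Cneg (4) it was 1 in series A alone and 1 to 6 with arrays left out, with 1 without Ly6Cneg A2 or PBS A1 and 2 without Ly6Cneg Apool or DT B2. For DT against cMoP (3) it was 2 to 4, and for Ly6Cneg against cMoP (6) it was 6 in every fit. The number of genes whose DT effect differed between series (0) was 3 with dim genes left out, 1 with the mean of probe sets, 1 with the trended and robust step, and 0 to 4 with arrays left out (4 without Ly6Cneg Anew, 3 without Apool, 2 without A2 or G-CSF B3, 1 without G-CSF B2). For this interaction the share of all genes was not counted in the alternative fits. The causes were not tested.

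With the array number as a replicate block, the DT against Ly6Cneg count was 2, and no other count of the 7 genes moved by over 1.5 times. Of the 45 other complement genes, 3 were then higher and 2 lower in G-CSF against PBS, in place of 5 and 5. With no series term these were also 3 and 2, and for DT against PBS 1 and 2 in place of 2 and 3. Over all genes the G-CSF counts of 1393 and 1379 became 1239 and 1218 with the block. With no series term they were 755 and 565, and those for DT were 1143 and 854 in place of 1497 and 1273. Correlations of deviations in series B were 0.000123 to 0.0895 for 9 same-numbered pairs, all positive, and -0.063 to 0.0466 for 18 others, all under 0.1. Since each deviation is taken from a mean of 3 arrays, these values cannot settle whether the numbers pair the arrays.

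Signs turned for values that were not called. In series A alone DT minus PBS was 0.69 for C1qa, 2.08 for C1qb, 0.78 for C1qc and 0.90 for C5ar1. In series B alone it was -0.12 for Cfp, G-CSF minus PBS was -0.20 for C1qc and G-CSF minus DT 0.23 for C5ar1. With no series term G-CSF minus DT was 0.06 for C5ar1 and DT minus Ly6Cneg -0.39 for C3ar1, and with quantile normalization DT minus Ly6Cneg was -0.02 for C5ar1. With arrays left out in turn, ranges that cross 0 were -0.12 to 0.24 for Cfp in DT minus PBS, -0.31 to 0.09 for C1qa in G-CSF minus PBS, -0.20 to 0.25 for C1qc in G-CSF minus PBS, -0.26 to 0.34 for C5ar1 in G-CSF minus DT, -1.28 to 0.89 for C5ar1 in DT minus Ly6Cneg, -0.92 to 0.80 for C1qa in DT minus cMoP, -0.12 to 3.18 for C1qb in DT minus cMoP, -0.61 to 1.02 for C1qc in DT minus cMoP, -0.58 to 0.48 for Cfp in DT minus cMoP and -0.01 to 0.31 for Cfb in Ly6Cneg minus cMoP.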
